A study of Mus musculus with 8 samples.

Results

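Constant open regions at gene ends are stretches of accessible chromatin that were called in every one of 4 deposited ATAC-seq peak lists from mouse embryonic stem cells and that lie at an annotated end of a protein-coding gene. Overlapping intervals of the 4 lists on chromosomes 1 to 19 and X were merged into 94048 union regions. A union region was kept when it overlapped each list by at least 1 bp and reached into the window of 1000 bp on each side of an annotated end of a RefSeq protein-coding gene. There were 8407 such regions, 12183 regions of all 4 lists that lay elsewhere, and 5586 gene-end regions of 1 to 3 lists. The regions were chosen by the measured peak calls of the 4 lists, so their presence, width and score in these lists are given as descriptions.

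ATAC-seq uses a transposase that inserts sequencing adapters into accessible DNA. The 8 samples form 4 groups of 2 replicates, all from cells kept for 4 passages in 2i/LIF medium, with 50000 cells per reaction and 12 cycles of PCR. The first pair is of the v6.5 line: Ubc9-depleted cells, whose TET-OFF Ubc9 (the enzyme that conjugates SUMO) was switched off by 72 hours of doxycycline, and Ubc9-control cells. Doxycycline is labelled for the depletion alone, so drug and depletion cannot be told apart. The second pair holds H1 triple-knockout cells (H1.2-/-H1.3-/-H1.4-/-), which lack 3 genes of the linker histone H1, and H1-WT cells, both from lines of an earlier publication. Both replicates of a group went into its 1 list, so differences between lists have no replicate check and no test was made, and read depth is not known.

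At most active genes, the stretch around the transcription start is kept free of nucleosomes by bound transcription factors, chromatin remodelers and the transcription machinery, and a transposase cuts it readily. Many promoters of broadly expressed genes lie in CpG islands, stretches rich in the dinucleotide CpG, and recruit factors such as NF-Y at the CCAAT box, Sp proteins at GC boxes, NRF1, and ETS proteins. Genes used in a few cell types more often have CpG-poor promoters, some of them with a TATA box.

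The promoters of the highest-ranked regions give a view of what these sequences look like. Ranks are by the lowest of the region's 4 score percentiles, each within its own list. The 10 highest-ranked regions had 8 promoters in the RefSeq table for GRCm38.p6 that start at the annotated gene start, and 4 of the 8 carried CCAAT, or ATTGG on the other strand, in the 150 bases upstream of the start. Those 4 are shown first because CCAAT is the motif whose share set constant CpG-rich promoters apart by the most percentage points, with the motif in capitals and all other bases in lower case, read 5′ to 3′ on the gene's strand up to the base before the start.
Khsrp, chr17:57031508-57031657, minus strand: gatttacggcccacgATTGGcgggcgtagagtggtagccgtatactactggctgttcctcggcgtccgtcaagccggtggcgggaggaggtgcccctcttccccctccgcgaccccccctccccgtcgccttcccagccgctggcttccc
Sp4, chr12:118301441-118301590, minus strand: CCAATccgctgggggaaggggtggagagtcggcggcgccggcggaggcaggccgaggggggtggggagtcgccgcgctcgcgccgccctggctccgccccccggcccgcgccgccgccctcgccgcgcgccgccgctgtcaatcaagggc
Serpini1, chr3:75557343-75557492, plus strand: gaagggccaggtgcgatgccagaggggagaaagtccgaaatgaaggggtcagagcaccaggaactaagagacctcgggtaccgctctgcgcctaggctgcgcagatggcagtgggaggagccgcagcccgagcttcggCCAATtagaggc
Hsd17b12, chr2:94157910-94158059, minus strand: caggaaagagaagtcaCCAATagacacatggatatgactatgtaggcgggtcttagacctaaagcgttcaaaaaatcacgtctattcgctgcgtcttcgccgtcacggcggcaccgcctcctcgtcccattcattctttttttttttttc
Khsrp encodes an RNA-binding protein of splicing and mRNA decay, Sp4 a factor that binds GC boxes, Serpini1 neuroserpin, and Hsd17b12 an enzyme of fatty acid elongation. A pair without the motif in this stretch follows for contrast, with no capitals.
Pdcd10, chr3:75556853-75557002, minus strand: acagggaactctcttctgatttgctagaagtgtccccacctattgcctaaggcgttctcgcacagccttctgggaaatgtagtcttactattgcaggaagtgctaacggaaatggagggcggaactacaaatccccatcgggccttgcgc
Leprot, chr4:101647633-101647782, plus strand: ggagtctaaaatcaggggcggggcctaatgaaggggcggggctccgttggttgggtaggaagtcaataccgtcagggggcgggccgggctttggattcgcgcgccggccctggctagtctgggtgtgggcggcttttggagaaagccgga
Pdcd10, a gene of cerebral cavernous malformations, starts back to back with Serpini1 inside 1 constant region, so the stretches shown for both genes lie between their starts in the same accessible site. Leprot encodes a membrane trafficking protein named after the leptin receptor. The highest-ranked genes with an ETS-type motif (CCGGAAG, here as CTTCCGG), the NRF1-type motif (GCGCATGCG) and the cAMP response element (TGACGTCA) are shown with 100 bases each, capitals marking only the motif named.
Ppp2r1a, chr17:20945204-20945303, plus strand: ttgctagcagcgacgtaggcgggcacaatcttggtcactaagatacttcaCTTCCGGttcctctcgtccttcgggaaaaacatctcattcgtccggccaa
Mrpl17, chr7:105811088-105811187, minus strand: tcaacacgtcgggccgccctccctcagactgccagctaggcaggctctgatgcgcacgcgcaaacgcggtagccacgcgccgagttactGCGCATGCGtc
Ing3, chr6:21949464-21949563, plus strand: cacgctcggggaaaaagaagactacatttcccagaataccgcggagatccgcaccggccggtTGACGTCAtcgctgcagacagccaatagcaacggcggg
Ppp2r1a encodes a scaffold subunit of protein phosphatase 2, Mrpl17 a protein of the mitochondrial ribosome, and Ing3 a subunit of a histone acetyltransferase complex. Krt20, a keratin of gut epithelium with no region at its start in any list, is shown as a gene of the opposite kind, with its TATA box (TATAAA) in capitals.
Krt20, chr11:99438154-99438303, minus strand: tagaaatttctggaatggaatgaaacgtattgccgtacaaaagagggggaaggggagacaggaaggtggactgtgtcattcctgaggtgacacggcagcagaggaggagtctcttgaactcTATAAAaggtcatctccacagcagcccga
In 150 bases, the constant promoters shown at that length had 25 CpG at Sp4, 15 at Khsrp, 12 at Leprot, 11 at Hsd17b12, 9 at Serpini1 and 6 at Pdcd10, against 4 at Krt20. All sequences are from RefSeq, and a motif match is a description of letters, not a site.

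Open regions held by all 4 lists lay at gene ends far more often than regions held by fewer lists. The share at gene ends was 5.49% of 42801 regions in 1 list, 9.23% of 16561 in 2 lists, 12.1% of 14096 in 3 lists and 40.8% of 20590 in all 4 (exact 95% binomial interval 40.2 to 41.5%, counting error only, as for all intervals here). Over all union regions it was 14.9%. Among regions that only 1 list lacked, the share at gene ends was 6.75% of the 9334 missing from Ubc9-depleted cells, 14.4% of the 1315 missing from Ubc9-control cells, 30.0% of the 1601 missing from H1 triple-knockout cells and 22.2% of the 1846 missing from H1-WT cells. Regions that the Ubc9-depleted list alone lacked were thus the most numerous of the 4 kinds and lay least often at gene ends.

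The constant gene-end regions served 9452 of the 21627 protein-coding genes, 43.7% (43.0 to 44.4%). A further 4133 genes (19.1%) had a gene-end region in 1 to 3 lists, and 8042 (37.2%) had none in any list. Strand was known for 17273 genes, and a constant region stood at the start of 7389 of them (42.8%) and at the end of 789 (4.57%). Of the 6722 regions whose genes all had a strand, 6052 (90.0%) reached starts only, 275 (4.09%) ends only and 395 both. Most of these regions thus stood at gene starts. Of all 8407, 6988 reached 1 gene, 1383 reached 2 and 462 lay over 2 divergent starts, a median of 100 bp apart.

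The regions ranked high within each list. The median score percentile, within each list, of the constant gene-end regions and of the constant regions elsewhere was 84.1 and 53.2 in Ubc9-depleted cells, 80.8 and 70.8 in Ubc9-control cells, 81.8 and 73.0 in H1 triple-knockout cells, and 81.4 and 72.1 in H1-WT cells. Gene-end regions of 1 to 3 lists stood lower, at 45.3 in Ubc9-depleted cells, 31.5 in Ubc9-control cells, 34.1 in H1 triple-knockout cells and 33.5 in H1-WT cells. The score is the authors' own value per peak, and a percentile describes a list without measuring change between lists. Constant gene-end regions made up 73.7%, 65.1%, 66.6% and 67.1% of the top 1% of peaks of Ubc9-depleted, Ubc9-control, knockout and H1-WT cells. They held 17.4 to 18.2% of all peaks of a list. The top 20% of all 4 lists had 2951 of the regions (35.1%), and 195 were in the lower part of all 4, under percentile 50. These counts were not made for the constant regions elsewhere, so nothing particular to gene ends is read from them.

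**Figure D1:**
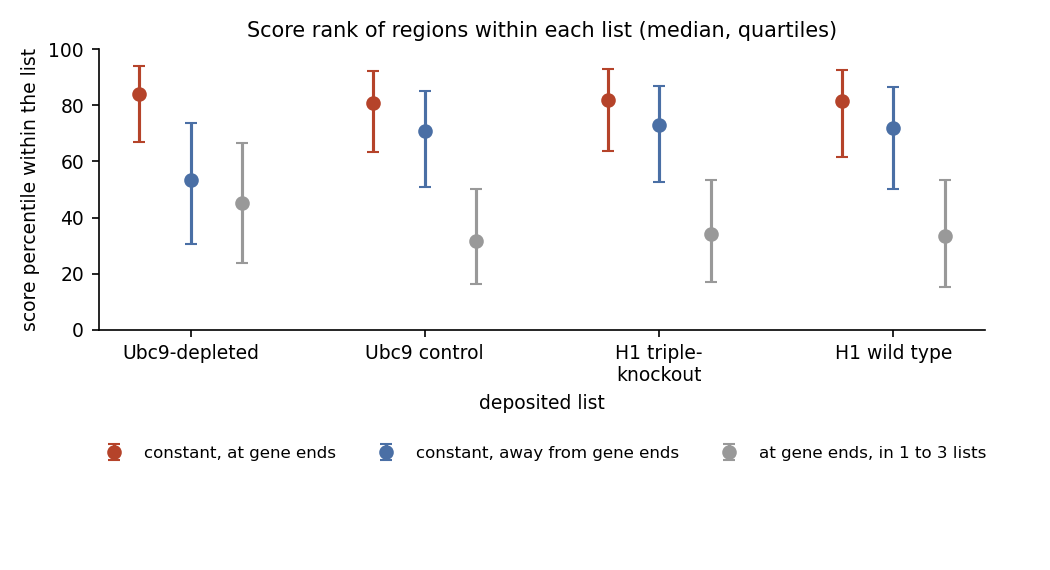
Score percentile within each deposited list for constant regions at gene ends, constant regions elsewhere and gene-end regions of 1 to 3 lists; points are medians and bars quartiles over regions. The constant gene-end regions have medians of 80.8 to 84.1 in the 4 lists, and the constant regions elsewhere have their lowest median, 53.2, in the Ubc9-depleted list.

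The order of the regions was alike across lists. Spearman's rho of the percentiles over the 8407 regions, a description across regions, was 0.75 between Ubc9-depleted and Ubc9-control cells and 0.845 between H1 triple-knockout and H1-WT cells. The lowest was 0.617, between Ubc9-depleted and H1-WT cells, and Ubc9-control and H1-WT cells had 0.823. Over the 12183 constant regions elsewhere the same values were 0.553, 0.694, 0.442 and 0.673. Points in each share the region's sequence, and lists of a pair come from related cells.

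The highest-ranked region of all was not at a start. It lay within 445 bp of the end of Lars2, the mitochondrial leucyl-tRNA synthetase, at chr9:123461723-123462230 (mm10), and its regions covered 442 bp in Ubc9-depleted cells, 442 bp in Ubc9-control cells, 508 bp in H1 triple-knockout cells and 452 bp in H1-WT cells. It stood at percentile 99.9657 or above in each list. Whether the reads of this region map to this place alone was not tested. The next, shared by Khsrp and Slc25a41, covered 1078 bp in Ubc9-depleted and 1090 bp in Ubc9-control cells, and 978 bp in H1 triple-knockout and 902 bp in H1-WT cells. Ppp2r1a followed with 1151 bp in Ubc9-depleted and 1143 bp in Ubc9-control cells, and 1036 bp in H1 triple-knockout and 1039 bp in H1-WT cells. Widths within each pair were thus close at Khsrp with Slc25a41 and at Ppp2r1a, but not at all of the first 10. Sp4 had 1757 bp in Ubc9-depleted and 1927 bp in Ubc9-control cells, and 1649 bp in H1 triple-knockout and 1707 bp in H1-WT cells. Ripk2 (a kinase of innate immune signalling), Zbtb20 (a zinc-finger repressor), Aasdhppt with Kbtbd3, Pdcd10 with Serpini1, Leprot and Hsd17b12 complete the first 10, with lowest percentiles of 99.8509 to 99.8878. Ripk2 had 734 bp in H1 triple-knockout and 1000 bp in H1-WT cells, while Leprot had 1050 bp in knockout and 1047 bp in H1-WT cells. Pdcd10 with Serpini1 had 1669 bp in Ubc9-depleted and 1320 bp in Ubc9-control cells.

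At the other extreme, 5 regions stayed under percentile 20 in all 4 lists, at Cyb5r2 with Ppfibp2, Abt1, D930020B18Rik, Cdsn and Glmp. Abt1, an activator of basal transcription, had 1235 bp in Ubc9-depleted and 899 bp in Ubc9-control cells, and 230 bp in H1 triple-knockout and 493 bp in H1-WT cells. Glmp, a lysosomal membrane protein, had 214 bp in Ubc9-depleted and 258 bp in Ubc9-control cells, and 192 bp in H1 triple-knockout and 256 bp in H1-WT cells. Cdsn (corneodesmosin, a protein of the outer skin), D930020B18Rik and the pair Cyb5r2 and Ppfibp2 were reached at gene ends, not starts. At the edge of the window, the regions of Plekhg3, Spindoc and Ackr3 lay 999 to 1000 bp from a gene end and were kept, while those of Pla2g1b, Ky and Rap2c lay at 1001 bp and were not.

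The merged regions had a median width of 787 bp (quartiles 573 and 1075 bp), from 221 to 8687 bp. All 4 lists covered a median of 349 bp in common, and 82 regions (0.975%) had no base that all lists covered. The widest were at Crlf2 (8687 bp), Fcgr3 (3936 bp), Il3ra (3657 bp), Gm20783 with LOC108167694 (3656 bp) and Peg3 with Usp29 (3545 bp). Crlf2, Fcgr3 and Il3ra encode receptors of blood cells, and Peg3 is an imprinted gene expressed from the paternal copy. The Peg3 and Usp29 region had 2790 bp in Ubc9-depleted and 3479 bp in Ubc9-control cells, and 2619 bp in H1 triple-knockout and 1884 bp in H1-WT cells. Reads of near-identical gene copies, such as those with Gm and LOC names, may not be told apart.

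In Ubc9-depleted cells the constant gene-end regions were slightly wider than in Ubc9-control cells. The median covered width was 712 bp in Ubc9-depleted cells and 624 bp in Ubc9-control cells, and the median log2 ratio per region was 0.12 (0.11 to 0.13), a 1.09-fold ratio. For constant regions elsewhere the median ratio was -0.061, with 397 bp in Ubc9-depleted and 437 bp in Ubc9-control cells. At least 1.5-fold wider were 1281 regions (15.2%), against 13.0% of all 26327 regions shared by the Ubc9 pair. At least 1.5-fold narrower were 431 (5.13%), against 9.07% of all shared regions. Nothing is read from these counts, since shared presence chose the regions.

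In H1 triple-knockout cells the regions were slightly narrower than in H1-WT cells, with medians of 415 bp and 439 bp. The median log2 ratio was -0.064 (-0.073 to -0.055), against -0.025 for constant regions elsewhere. At least 1.5-fold narrower were 911 (10.8%), against 10.8% of all 37274 regions shared by the H1 pair, and 435 (5.17%) were at least 1.5-fold wider, against 7.52%. The ratios of the pairs were almost unrelated across the regions (Spearman's rho 0.081, a description over 8407 regions). Widths of the pairs are not compared with each other, because the deposited lists differ in form.

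The added width in Ubc9-depleted cells lay mainly inside the gene. At 5310 regions over 1 gene start, the downstream edge lay a median of 436 bp from the start in Ubc9-depleted cells and 340.5 bp in Ubc9-control cells, and the per-region difference had a median of 36 bp (33 to 39 bp). The upstream edge lay at 264 bp in Ubc9-depleted cells and 253 bp in Ubc9-control cells, with a median difference of 12 bp (10 to 14 bp). The list of Ubc9-depleted cells covered the position 500 bp inside the gene at 38.0% of these starts and that of control cells at 29.2%, while 500 bp upstream the share was 14.0% in depleted and 13.3% in control cells. In the H1 pair both edges lay nearer the start in knockout cells, by a median of 9 bp downstream and 5 bp upstream (differences of -9 and -5 bp). Depth is unknown and could not be set beside these edges.

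**Figure D2:**
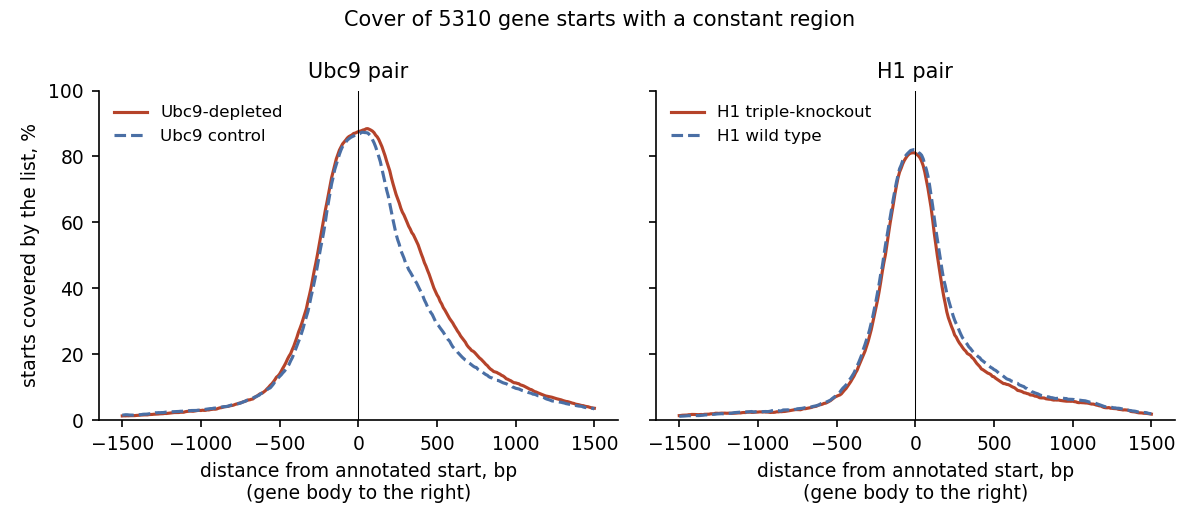
Percent of 5310 gene starts with a constant region that each list covered at each distance from the annotated start, with the gene body to the right; left, Ubc9-depleted and Ubc9-control cells, right, H1 triple-knockout and H1-WT cells. The line of Ubc9-depleted cells lies above that of control cells downstream (38.0% against 29.2% at 500 bp), and the lines of the H1 pair lie close together (13.2% in knockout cells and 15.4% in wild-type cells at 500 bp).

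Single regions moved much more than the median. Tfeb, a regulator of lysosomal genes, had 1816 bp in Ubc9-depleted cells and 343 bp in Ubc9-control cells, and L3mbtl3, a methyl-lysine reader, 1633 bp in depleted and 314 bp in control cells. The largest width ratio of the Ubc9 pair was at the end shared by Fam171a2 and Grn (progranulin), with 1444 bp in depleted and 215 bp in control cells, and Gm3500 and Gal3st3 (a galactose sulfotransferase) complete the 5 largest ratios. In the other direction, LOC115488283 had 253 bp in depleted and 2540 bp in control cells, and Smim26 had 242 bp in depleted and 1129 bp in control cells. Glod5, Trim12a and Casc1 with Lrmp were the other 3. At Tfeb, Fam171a2 with Grn, Gal3st3, and Casc1 with Lrmp, no base was covered by all lists. The widths given for these merged regions may thus belong to different stretches, and whether a single stretch widened or narrowed there was not tested.

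In the H1 pair, Copg1 (a coat protein of Golgi vesicles) with Hmces (a protein of DNA repair) had 76 bp in triple-knockout cells and 792 bp in wild-type cells. Anks1b had 154 bp in knockout and 1095 bp in wild-type cells. The region over Cbx3 and Hnrnpa2b1, a divergent pair long known as a housekeeping CpG island, had 186 bp in knockout and 1071 bp in wild-type cells. It covered 2507 bp in Ubc9-depleted cells and 1432 bp in Ubc9-control cells. Abraxas1 with Gpat3 and St8sia6 complete the 5 lowest ratios. The 5 highest ratios of knockout to wild-type width were at Aloxe3 with Hes7 (869 bp in knockout, 176 bp in wild-type cells), Dio3, an imprinted gene that inactivates thyroid hormone (507 bp in knockout, 116 bp in wild-type cells), Pias3, a SUMO ligase (919 bp in knockout, 221 bp in wild-type cells), Ddit4l (1083 bp in knockout, 262 bp in wild-type cells) and Traf6 (577 bp in knockout, 141 bp in wild-type cells). These are extremes of 1 list each and have no replicate check.

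The chromosome a region lay on went with its width ratio. In the Ubc9 pair the median log2 ratio was above 0 on 19 of 20 chromosomes, from -0.018 on X to 0.24 on 19, with 0.22 on 11. In the H1 pair it was -0.28 on chromosome 8, -0.22 on 6 and 0.10 on 3, and from -0.10 to -0.0072 on the remaining 17. On chromosomes 8, 6 and 3 the constant regions elsewhere had medians of -0.20, -0.12 and 0.14. The H1 pair thus differed by chromosome in and away from gene ends alike, and without these 3 chromosomes the median of the gene-end regions was -0.056. What moves with these chromosomes was not tested.

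**Figure D3:**
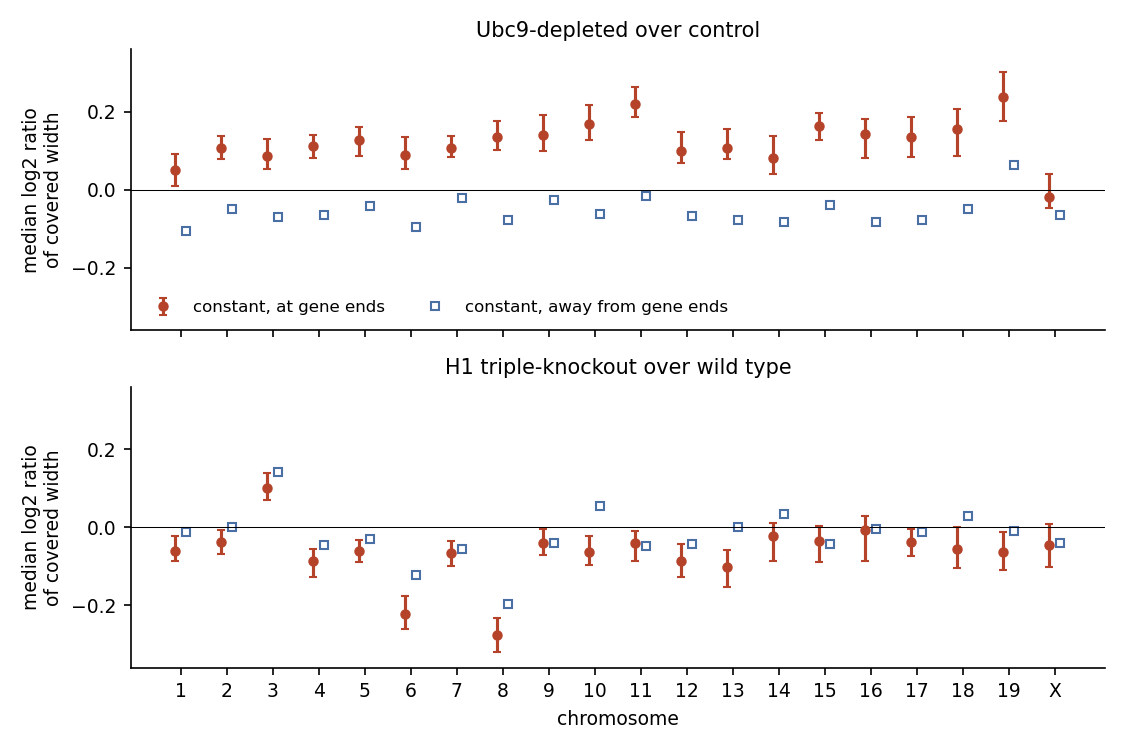
Median log2 ratio of covered width per chromosome for constant regions at gene ends (circles, bars are 95% intervals of the median over regions) and elsewhere (squares); above, Ubc9-depleted over control, below, H1 triple-knockout over wild type. In the lower panel chromosomes 8 (-0.28) and 6 (-0.22) lie below the others and chromosome 3 (0.10) above 0, for both kinds of region.

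Regions over 2 divergent starts ranked higher than those over 1 start. The median of the lowest percentile was 79.4 at the 462 divergent regions, 70.9 at the 5310 regions of 1 start and 34.3 at the 275 regions at gene ends only. The regions at ends only were narrower, with a median merged width of 510 bp, against 789 bp at 1 start and 862.5 bp at divergent starts. Their median log2 width ratio was 0.0031 in the Ubc9 pair and -0.013 in the H1 pair. Other annotation was found near few of them: 17 of the 275 (6.18%) reached either end of a long noncoding RNA gene, against 13.5% of the regions at starts only and 7.36% of the constant regions elsewhere. A transcript start of the promoter table lay within reach of 22 (8%), against 10.9% of the constant regions elsewhere. In the share near a long noncoding RNA gene, the regions at ends only were thus nearer to the constant regions elsewhere than to those at starts. The share near a transcript start is not set against regions at starts, since gene starts define that class.

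The sequence of the promoter, which the rule did not use, differed most by CpG content. Promoters are the 300 bases from 250 before to 50 after the start, for the 10415 genes whose table start is within 1 bp of the annotated start; genes without such an entry, all of chromosome 18 among them, are not in these counts. A region counts at the start when it lies within 1000 bp of it, and 3921 of the 4121 promoters with a constant one overlapped a constant region. A ratio of observed to expected CpG of at least 0.6 is called CpG-rich here. It held for 78.3% (77.0 to 79.5%) of the 4121 promoters with a constant region at the start. It held for 55.9% of 1602 with a region in 1 to 3 lists and for 6.84% of 4692 with none. The median ratio was 0.783, 0.647 and 0.172 in the same order, and 42.7% of all 10415 were CpG-rich. A constant region stood at 2.56% of promoters with a ratio under 0.2, 14.2% from 0.2 to 0.4, 45.6% from 0.4 to 0.6, 69.0% from 0.6 to 0.8 and 75.3% from 0.8 to 1. Above 1 the share was again 75.3%, so it did not climb further. GC content moves with this ratio: its median was 61% in constant promoters, 58.7% in those of 1 to 3 lists and 45.3% in those of none, and its part in the calls was not tested.

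Of 10 motifs searched on both strands, CCAAT separated the classes of CpG-rich promoters by the most percentage points. None of the 10 contains another. Among CpG-rich promoters, CCAAT stood in 45.4% (43.7 to 47.2%) of those with a constant region, 26.6% (23.7 to 29.6%) of those with a region in 1 to 3 lists and 22.1% (17.7 to 27.1%) of those with none. Over all 10415 promoters it stood in 40.9%, and over promoters of any CpG content in 45.7% of the constant, 32.5% of those of 1 to 3 lists and 39.6% of those with none, where the classes lay closer together. The ETS-type motif CCGGAAG stood in 21.5%, 16.4% and 7.79% of CpG-rich promoters in the same order (10.5% of all promoters) and the GC box GGGCGG in 75.1%, 71.7% and 61.7% (41.4% of all). The remaining motifs were rarer. In CpG-rich promoters of constant, 1 to 3 and no lists, GCGCATGCG stood in 4.90%, 4.91% and 2.49% (2.25% of all), TGACGTCA in 4.59%, 3.79% and 2.18% (2.30% of all), and AAGATGGCG, a YY1-type motif, in 4.09%, 3.91% and 0.935% (1.77% of all). The E-box CACGTG differed little, at 12.3%, 11.3% and 10.6% (7.63% of all), and ACTACAATT was found in 31 constant promoters (0.752%) and 0.422% of all.

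TATAAA and TGAGTCA had the opposite order. TATAAA stood in 7.43% of all constant promoters, 10.9% of those in 1 to 3 lists and 27.6% of those in none (17.1% of all). Within CpG-rich promoters it stood in 6.82% (5.97 to 7.74%), 7.59% (5.94 to 9.52%) and 9.35% (6.39 to 13.1%), with overlapping intervals. TGAGTCA, the AP-1-type motif, stood in 2.62%, 4.99% and 7.40% (5.14% of all), and within CpG-rich promoters in 2.17%, 3.125% and 5.30%. In constant promoters the centre of CCAAT had a median position of -59 from the start, where the bases immediately upstream are -1, and in 62.4% of the 1885 constant promoters with CCAAT it lay within 100 bases upstream. The GC box had a median of -26 and the YY1-type motif one of 14, inside the transcript. TATAAA had a median of -133 in constant promoters, and 32.0% lay within 100 bases upstream.

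**Figure D4:**
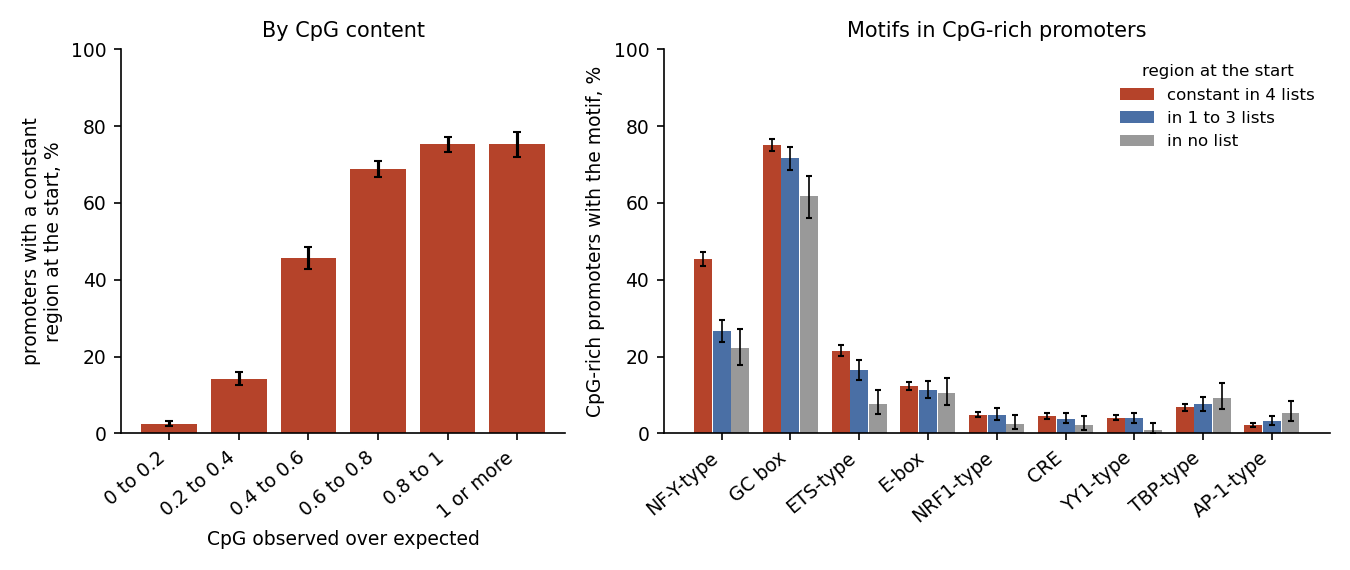
Left, percent of promoters with a constant region at the start, by the ratio of observed to expected CpG; right, percent of CpG-rich promoters (ratio at least 0.6) with each motif, by whether the start had a region in all 4 lists, in 1 to 3 or in none. NF-Y-type is CCAAT, and TBP-type is TATAAA; error bars are exact 95% intervals. CCAAT stands in 45.4% of constant CpG-rich promoters, against 26.6% of those in 1 to 3 lists and 22.1% of those in none.

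Promoter sequence also went with rank among the constant regions. With CCAAT, the median percentile was 88.2 in Ubc9-depleted, 86.3 in Ubc9-control, 87.5 in H1 triple-knockout and 86.6 in H1-WT cells. Without it, the medians were 82.4 in Ubc9-depleted, 77.4 in Ubc9-control, 78.9 in H1 triple-knockout and 78.2 in H1-WT cells. Regions at CpG-rich promoters had 87.5 and those at CpG-poor promoters 72.8 in Ubc9-depleted cells, with 82.7 and 77.3 in Ubc9-control cells, 83.2 and 81.0 in H1 triple-knockout cells and 82.4 and 80.1 in H1-WT cells. The median log2 width ratio of the Ubc9 pair was 0.16 at CpG-rich and 0.054 at CpG-poor promoters, and that of the H1 pair -0.062 and -0.083.

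Genes that every cell uses had a constant region most often, and genes of single tissues least. Of 23 gene lists, 18 stood above the 43.7% of all protein-coding genes. DNA replication led with 42 of 46 genes (91.3%), followed by chaperones with 28 of 32 (87.5%), aminoacyl-tRNA synthetases with 31 of 37 (83.8%) and core histones with 58 of 70 (82.9%). The histone genes sit close together and shared 35 regions. Among the replication genes, Mcm4 of the replicative helicase had 1131 bp in Ubc9-depleted and 943 bp in Ubc9-control cells, and 849 bp in H1 triple-knockout and 782 bp in H1-WT cells. Of the 4 without a constant region, Pola2 and Rfc1 had a region in 1 to 3 lists, while Orc1 and Orc4, of the origin recognition complex, had none in any list. Hspa5, the chaperone of the endoplasmic reticulum, had 861 bp in Ubc9-depleted and 669 bp in Ubc9-control cells, and 563 bp in H1 triple-knockout and 474 bp in H1-WT cells.

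Genes of protein synthesis followed closely. Translation initiation factors had 42 of 52 (80.8%), cytosolic ribosomal proteins 63 of 79 (79.7%) and mitochondrial ribosomal proteins 54 of 77 (70.1%). The first list was made by gene name and also holds genes such as the kinases Eif2ak3 and Eif2ak4, which are not initiation factors themselves. Rpl34 of the large ribosomal subunit had 629 bp in Ubc9-depleted and 531 bp in Ubc9-control cells, and 502 bp in H1 triple-knockout and 444 bp in H1-WT cells. Mrpl17 had 1129 bp in Ubc9-depleted and 869 bp in Ubc9-control cells, and 700 bp in H1 triple-knockout and 584 bp in H1-WT cells. In both, each perturbed list was the wider of its pair, but other genes of these lists went the other way. At Rps29 the log2 width ratio was -0.115 in the Ubc9 pair and -0.125 in the H1 pair. At Mrps14 it was -0.203 in the Ubc9 pair and -0.180 in the H1 pair. Of the 13 ribosomal genes with a region in 1 to 3 lists, among them Fau, Rpl10a and Rpl12, 12 had it in Ubc9-depleted cells, 11 in Ubc9-control cells, 6 in H1 triple-knockout cells and 6 in H1-WT cells. Of all 4133 genes with a region in 1 to 3 lists, 59.5% had it in Ubc9-depleted, 54.0% in Ubc9-control, 47.2% in H1 triple-knockout and 48.8% in H1-WT cells, beside 92.3%, 84.6%, 46.2% and 46.2% of these ribosomal genes in the same order. The median log2 width ratio of the Ubc9 pair was 0.26 over cytosolic and 0.28 over mitochondrial ribosomal proteins, against 0.12 over all constant gene-end regions, and that of the H1 pair 0.073 and 0.11, against -0.064.

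Energy, protein turnover and transcription gave similar counts. The respiratory chain and ATP synthase had 57 of 75 (76%), the proteasome 29 of 39 (74.4%), RNA polymerase II with its general factors 38 of 52 (73.1%), mediator 26 of 33 (78.8%) and the spliceosome 44 of 55 (80%). Atp5g1, a subunit of ATP synthase, had 788 bp in Ubc9-depleted and 764 bp in Ubc9-control cells, and 658 bp in H1 triple-knockout and 677 bp in H1-WT cells. Psma5, of the proteasome core, had 932 bp in Ubc9-depleted and 577 bp in Ubc9-control cells, and 481 bp in H1 triple-knockout and 437 bp in H1-WT cells. Sf1, which binds the branch point of introns, was wider in Ubc9-depleted cells (1551 bp) than in Ubc9-control cells (755 bp), with 747 bp in H1 triple-knockout and 810 bp in H1-WT cells. Of 15 respiratory genes with a region in 1 to 3 lists, such as Atp5a1, 13 had it in Ubc9-depleted, 11 in Ubc9-control, 4 in H1 triple-knockout and 5 in H1-WT cells (86.7%, 73.3%, 26.7% and 33.3%, beside 59.5%, 54.0%, 47.2% and 48.8% of all such genes). These counts are small and were not tested.

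Factors that bind promoters, in 1 list with Ctcf and the cohesin genes, had 21 of 29 (72.4%). Among them was Nfya, a subunit of the CCAAT-binding NF-Y. It had 944 bp in Ubc9-depleted and 1063 bp in Ubc9-control cells, and 931 bp in H1 triple-knockout and 865 bp in H1-WT cells. Nfyc, another subunit, had a region in 1 to 3 lists only. Chromatin remodelers had 43 of 69 (62.3%) and polycomb components 16 of 27 (59.3%, 38.8 to 77.6%), an interval that holds the background. The polycomb regions had a median log2 width ratio of 0.48 in the Ubc9 pair, over 16 genes: Cbx8 had 1238 bp in depleted and 661 bp in control cells and Yaf2 1393 bp in depleted and 629 bp in control cells, while Ezh2, the methyltransferase, had 1613 bp in depleted and 1640 bp in control cells. Zfp zinc-finger genes had 250 of 394 (63.5%), led by Zfp78.

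Pluripotency factors stood near the background, with 14 of 27 (51.9%, 31.9 to 71.3%). The list turned to below the background with scores of at least 100 (33.3%, against 36.9% of all genes) and with 40000 peaks per list (33.3%, against 39.1%). Klf5, a factor of self-renewal, had 1403 bp in Ubc9-depleted and 1210 bp in Ubc9-control cells, and 663 bp in H1 triple-knockout and 575 bp in H1-WT cells. Zfp42 (Rex1), Tet2, a DNA demethylating enzyme, and Tbx3 were the next by rank. Lineage regulators had 19 of 83 (22.9%), below the background, and a further 30 had a region in 1 to 3 lists. Of those 30, 13 had it in Ubc9-depleted, 11 in Ubc9-control, 21 in H1 triple-knockout and 14 in H1-WT cells (43.3%, 36.7%, 70% and 46.7%, beside 59.5%, 54.0%, 47.2% and 48.8% of all genes with a region in 1 to 3 lists, in the same order). With a score of at least 100 in every list the share of lineage regulators was 12.0%, against 36.9% of all genes. Olig1, of the oligodendrocyte lineage, had 928 bp in Ubc9-depleted and 798 bp in Ubc9-control cells, and 299 bp in H1 triple-knockout and 336 bp in H1-WT cells, and Neurod4, of neurons, had 350 bp in Ubc9-depleted and 471 bp in Ubc9-control cells, and 342 bp in H1 triple-knockout and 425 bp in H1-WT cells.

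Genes of single tissues were almost without constant regions. Keratins had 1 of 53, at Krt88, crystallins and globins 3 of 23 (13.0%), olfactory and vomeronasal receptors 11 of 1459 (0.754%, and 1.64% with a window of 2500 bp), and defensins and caseins 0 of 75, with an exact upper bound of 4.80%. The keratin region, 197 bp from an end of Krt88, had 354 bp in Ubc9-depleted and 375 bp in Ubc9-control cells, and 235 bp in H1 triple-knockout and 226 bp in H1-WT cells. Vmn1r4 led the receptors, but its region also reached the start of Nt5c3, a nucleotidase. CpG-rich promoters were few in these lists, at 3 of 30 keratins, 6 of 1202 receptors and 0 of 45 defensins and caseins with a promoter in the table. They were 42 of 50 cytosolic ribosomal proteins and 20 of 23 replication genes. Core histones were mixed, with 39 of 60 CpG-rich, 51 of 60 with CCAAT and 31 of 60 with TATAAA.

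**Figure D5:**
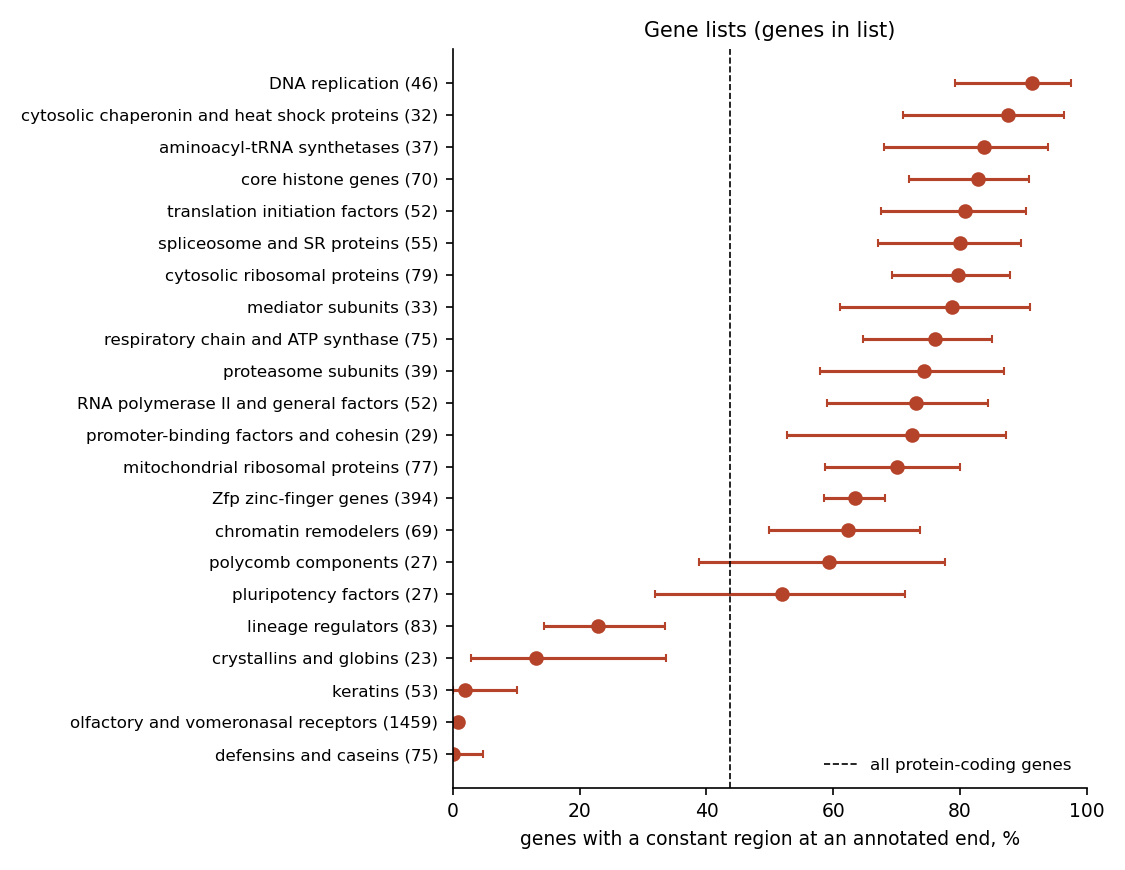
Percent of each gene list, other than the targeted genes, with a constant region at an annotated end (points, with exact 95% intervals). The number of genes in the list is in parentheses and the dashed line is the 43.7% of all protein-coding genes. Replication genes are highest at 91.3%, and lineage regulators (22.9%) and the lists of single tissues lie left of the line.

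The 3 linker histone genes deleted in the H1 triple-knockout cells all had such a region, though only 1 did with a score of at least 100 in every list: H1f2 (H1.2) with 365 bp in H1 triple-knockout and 1342 bp in H1-WT cells, H1f3 (H1.3) with 326 bp in knockout and 883 bp in wild-type cells, and H1f4 (H1.4), in a region shared with H2bc6, with 436 bp in each. H1f2 had 1455 bp in Ubc9-depleted and 1402 bp in Ubc9-control cells, H1f3 678 bp in depleted and 1456 bp in control cells, and H1f4 1538 bp in depleted and 1059 bp in control cells. At H1f3 no base was covered by all lists, while all lists covered 365 bp in common at H1f2 and 173 bp at H1f4. The H1f3 region is thus constant by the overlap rule, without a stretch that all lists share. The 3 regions lie over the deleted genes themselves. In the H1 pair, the deletion at the locus and a change in accessibility thus cannot be told apart there. An ATAC peak does not measure whether a gene's product is made.

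The labelled cell type was checked against markers. Of 15 embryonic stem cell markers, 10 had a constant region, among them Nanog, Sox2, Klf4 and Zfp42. Pou5f1, Esrrb and Lin28a had no gene-end region in any list, and the regions nearest to the ends of Pou5f1 lay 1663 bp and 1053 bp away. Of 10 fibroblast or feeder markers, 0 had a constant region and 5 had one in 1 to 3 lists. Of 6 neural markers 2 had a constant region, Map2 and Neurod1, and none of 5 blood markers had a gene-end region in any list. Over all protein-coding genes, 43.7% had a constant region, 19.1% had one in 1 to 3 lists only and 37.2% had none. The marker counts are small and their distance from these shares was not tested. The lists held 46622 to 57889 regions on the chromosomes used.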

How the data were processed

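ATAC-seq peak lists were analysed, 1 for each of 4 groups, each made by the authors from both replicates, per the labels. Per the submitters' processing notes, reads were handled with Bowtie2, Picard, CASAVA 1.8.2 and MACS 1.4.2-1 on build mm10; their settings, how replicates were combined and any shift of reads for the transposase are not given in the sources used here. For each peak the authors deposited coordinates and a score of at least 50. The score was used only to rank or filter peaks within a list, as a percentile; a region took its highest-scoring peak. Covered width is the sum of a list's peaks in a region and was compared only within a pair.

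Genes were the 21627 protein-coding genes of chromosomes 1 to 19 and X in a RefSeq table for GRCm38.p6, the assembly of mm10. Strand and promoter sequence came from a RefSeq promoter table, which held 17273 of them. Intervals are exact binomial (Clopper-Pearson), or order statistics for medians, at 95%, and cover counting error only. With 1 list per group there was no test; replicates are not said to be separate cultures. The regions and gene lists were chosen with earlier results of these data known. Genes named are the 10 highest-ranked and 5 lowest-ranked regions, the 5 most wider and 5 most narrower per pair with at least 500 bp in 1 list and 50 bp in the other, the 5 widest, up to 4 genes with a region by rank and 3 without by name per gene list, the highest-ranked per motif, the targeted genes (the one of the Ubc9 pair is not reported here) and 3 on each side of the window's edge. Other genes, Nfyc, Pola2, Rfc1 and Krt20 among them, were named after their values were seen. Overlap and merging were tested on simulated data: 1651 regions compared with a direct check of every pair gave 0 disagreements. Analyses used Python 3.11.15 with pandas 2.3.3, numpy 2.4.6, scipy 1.17.1 and matplotlib 3.10.9. Alternatives were a score of at least 100, 40000 peaks per list, other overlaps, windows and merging distances, gene starts only, no predicted genes, other width and CpG definitions, and leaving out chromosomes.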

Additional observations from a re-analysis of the deposited data

Results flagged for a closer look

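Regions outside the chromosomes used were more numerous in Ubc9-depleted cells than in their control. Unplaced scaffolds held 119 regions in Ubc9-depleted cells and 75 in Ubc9-control cells. Chromosome Y held 324 in Ubc9-depleted cells and 150 in Ubc9-control cells. In H1 triple-knockout cells the counts were below those of H1-WT cells, with 76 against 109 on scaffolds, and the 74 regions on Y were also fewer than in H1-WT cells. Of the 401 merged regions on Y, 35 were in all 4 lists and 0 of these lay at a gene end; 21 gene-end regions were in the Ubc9-depleted list, 5 in the Ubc9-control list, 1 in the H1 triple-knockout list and 3 in the H1-WT list. Depth and replicate spread are unknown, and the difference was not tested.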

How the results depend on the processing

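No paired analysis was possible because each group has 1 list made from both replicates, and for the same reason no replicate could be left out. The numbers of regions (8407) and genes (9452) stayed within 1.5 times under the 13 alternatives run for each, from 6631 regions and 7389 genes (gene starts only) to 9359 and 10403 (window of 2500 bp). The 18 lists above background became 16 to 18 under the 6 alternatives run for them. Pluripotency factors, at 33.3%, fell below it with scores of at least 100 and with 40000 peaks per list. The list of targeted genes also fell below it with scores of at least 100 (25%, against 36.9% of all genes). The share of 4-list regions at gene ends (40.8%) became 49.6% with scores of at least 100, 45.3% with 40000 peaks per list, 38.7% and 45.5% with windows of 500 and 2500 bp, 32.2% with starts only and 39.6% without predicted genes. With the window of 2500 bp the Ubc9 width ratio was 0.11, and the percentiles 82.6 in Ubc9-depleted, 79.8 in Ubc9-control, 81.0 in triple-knockout and 80.4 in wild-type cells; with 500 bp the Ubc9-depleted percentile was 84.8. From first to last base the H1 width ratio was -0.048. Taking the mean over a list's peaks gave percentiles of 79.3 (H1 triple-knockout) and 78.5 (H1-WT), and regions with 1 peak in each list 82.5 (Ubc9-control) and 82.4 (H1 triple-knockout). The CpG-rich share (78.3%) became 79.7% with scores of at least 100, 79.8% without predicted genes, 87.1% and 56.3% at thresholds of 0.5 and 0.75, 80.8% for promoters that overlap a constant region, and 80.2% with the nearest table start within 1000 bp, an alternative chosen after seeing the data. The causes were not tested. Of 138 values of single gene lists, 126 stayed within their interval. With scores of at least 100, lineage regulators had 12.0% and keratins 0%. At that setting core histones had 67.1% and mitochondrial ribosomal proteins 53.2%, both still above the 36.9% of all genes. No width ratio changed sign under these alternatives. The unknown depth limits every count, since more reads give more peaks.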

Other observations

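Some constant regions stood at CpG-poor promoters, and some CpG-rich promoters had none; both sets were picked after their values were seen. Among promoters with a constant region at the start and a ratio of observed to expected CpG under 0.2, Clec11a, a secreted growth factor, ranked highest, with a ratio of 0.195 and 1446 bp in Ubc9-depleted and 1172 bp in Ubc9-control cells, and 936 bp in H1 triple-knockout and 832 bp in H1-WT cells. Sspn (sarcospan) had a ratio of 0.125, Pank2, a kinase of coenzyme A synthesis, 0.197, Laptm4a 0.0924, and Jund, an AP-1 subunit, 0.184. In all, 74 of 2892 promoters with so low a ratio had a constant region. Of 4443 CpG-rich promoters, 321 had no region at the start in any list. Jph3, which joins membranes in excitable cells, had a ratio of 1.20, and Eme2, of a DNA repair nuclease, one of 1.19. Efna5 (an ephrin) had 1.10, Rab39b 1.06 and Prok2 1.03.

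The share of genes with a constant gene-end region ranged from 32.2% on chromosome X and 35.4% on 14 to 53.9% on 12. Without the olfactory and vomeronasal receptors the share was 32.4% on X, 37.2% on 14 and 53.9% on 12, and on chromosome 7 it was 47.3% without and 37.8% with them. Of 9549 genes with a promoter in the table and no constant region at an annotated end, 675 (7.07%) had one within 1000 bp of another start that the table lists.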
